A study of Mus musculus with 28 samples.

Results

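The 10 genes described here encode the enzymes that use molecular oxygen to modify collagen: 2 catalytic subunits of collagen prolyl 4-hydroxylase (P4ha1 and P4ha2), 3 lysyl hydroxylases (Plod1, Plod2 and Plod3) and 5 lysyl oxidases (Lox, Loxl1, Loxl2, Loxl3 and Loxl4). They were chosen by symbol from the 54429 genes of the deposited count table, and all 10 passed the filter on low counts in every comparison. Their transcripts were measured by RNA sequencing in O9-1 cells, a line of mouse cranial neural crest cells, in 28 libraries. Every culture type was grown both at 21% O2 (normoxic, 4 libraries) and at 0.5% O2 (hypoxic, 3 libraries), which gives 8 groups. Proliferating cells were held in DMEM conditioned on STO feeder cells, to which 15% fetal calf serum (FCS), 25 ng/ml bFGF, 5 ng/ml LIF, beta-mercaptoethanol and non-essential amino acids were added. Chondrocyte conditions were 3 days of osteogenic medium and then 7 days as micromasses on matrigel, in alpha-MEM with 5% FCS, insulin-transferrin-selenium, dexamethasone, 10 ng/ml TGF-beta3 and 50 ng/ml BMP-2. Osteoblast conditions were 10 days in osteogenic medium, an alpha-MEM with 10% FCS that held beta-glycerophosphate, dexamethasone and 100 ng/ml BMP-2. Smooth muscle conditions were 3 days in DMEM with 10% FCS. Penicillin and streptomycin were in all media. All groups derive from 1 cell line, and the labels do not say that libraries came from separate cultures, so the p-values measure the spread between these libraries, which may be technical.

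Fibrillar collagen is modified in steps that depend on oxygen. Inside the endoplasmic reticulum, prolyl 4-hydroxylase converts prolines to hydroxyproline, which stabilises the triple helix, and lysyl hydroxylases convert lysines to hydroxylysine, the attachment site for sugars and the precursor of stable cross-links. Both enzyme types need oxygen, iron, 2-oxoglutarate and ascorbate. Outside the cell, lysyl oxidases, which are copper enzymes, oxidise lysine and hydroxylysine residues of collagen and elastin so that the chains cross-link. In cartilage and bone these steps set the strength of the matrix, and several of the genes are known targets of hypoxia-inducible factors.

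Libraries held 19.9 to 64.7 M counts (median 26.8 M). Levels are given as CPM, the count of a gene relative to the library's total, after TMM scaling, which corrects for differences in RNA composition. The 3 hypoxic smooth muscle libraries stood apart: the mitochondrial ribosomal RNAs mt-Rnr1 and mt-Rnr2 took 11.6% to 13.3% of their counts, against 0.0252% to 0.0889% in the other 25 libraries, and their TMM factors were 0.505 to 0.533 against 0.901 to 1.289. Smooth muscle actin, Acta2, lay at 13.9 to 30.02 CPM in these 3 libraries and at 3013 to 3449 CPM in the normoxic smooth muscle libraries. Proliferating cells of either oxygen level held 25.03 to 43.98 CPM of Acta2, so this marker of the labelled cell type was no higher in hypoxic smooth muscle cultures than before differentiation. In bulk RNA, fewer cells of a type and less RNA per cell cannot be told apart. Normoxic osteoblast replicate 4 also stood apart, with Col2a1 at 776 CPM against 35.6 to 43.6 CPM in the other 3 libraries of its group and Sp7 at 45.4 CPM against 0.670 to 1.36 CPM, and the members' values it moved most are also given without it. The bone gene Ibsp was at 0.384 to 3.20 CPM in normoxic osteoblast cultures and at 734 to 1914 CPM in normoxic chondrocyte cultures, so this late marker did not match the osteoblast label. The cartilage collagen Col2a1 was at 1039 to 5879 CPM in normoxic and at 194.1 to 372.2 CPM in hypoxic chondrocyte cultures. Summed endothelial and epithelial markers reached at most 7.62 and 1.54 CPM in any library. Summed leukocyte markers reached 36.5 CPM, in a hypoxic smooth muscle library, nearly all of it from the lysosomal gene Cd68, with Adgre1 at 0 and Ptprc at most 0.278 CPM in that group.

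**Figure D1:**
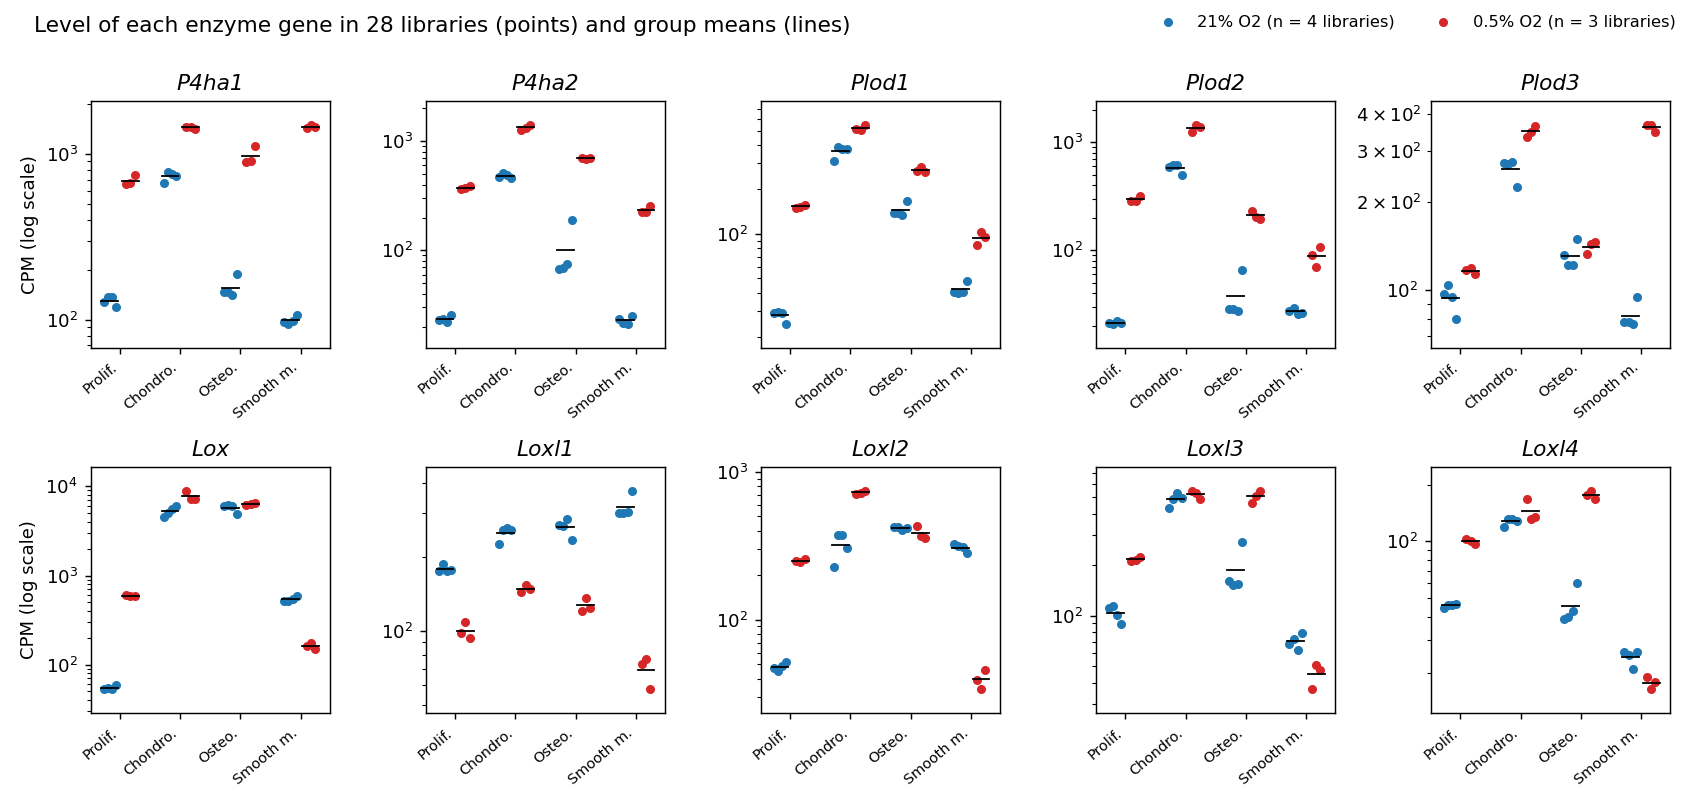
Level of each of the 10 genes in CPM (log axis) in the 28 libraries by culture type, with 21% O2 libraries in blue (4 per group), 0.5% O2 libraries in red (3 per group) and group means as black lines. The P4ha1, P4ha2, Plod1 and Plod2 libraries lie higher at 0.5% O2 in all 4 culture types and the Loxl1 libraries lie lower, while Lox changes side between proliferating and smooth muscle cultures; with scaling by library size alone, the Plod1 difference in smooth muscle is -0.15.

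The first question is how these genes respond to low oxygen in each culture type. In proliferating cells 9 of the 10 genes rose and Loxl1 fell. In chondrocyte cultures 7 rose, Loxl1 fell, and Loxl3 and Loxl4 did not pass the test. In osteoblast cultures 6 rose, Loxl1 fell, and Plod3, Lox and Loxl2 did not pass. Markers of the cell types moved with the osteoblast comparison: from normoxic to hypoxic libraries the 7 osteoblast markers summed to 1041 to 1234 and 4971 to 5271 CPM, and the 7 smooth muscle markers to 3653 to 5179 and 2215 to 2495 CPM. The 8 chondrocyte markers summed to 3187 to 9650 CPM in normoxic and 906.4 to 1383 CPM in hypoxic chondrocyte cultures. The part of these markers in the results was not tested. In smooth muscle cultures all 5 hydroxylase genes rose and all 5 lysyl oxidase genes fell. A gene was called when its edgeR quasi-likelihood p, adjusted over all genes tested by the Benjamini-Hochberg method, was under 0.05. Over all genes tested, 33.1% were called higher and 32.3% lower in proliferating cells, 10.4% and 11.8% in chondrocyte cultures, 27% and 27.3% in osteoblast cultures, and 35.4% and 40.2% in smooth muscle cultures, and the members' counts are read against these shares. The median log2 fold change of the 10 genes was 2.45, 0.54, 1.18 and 0.42 in the same order, beside 0.01, -0.01, -0.03 and -0.12 over all genes tested. The smooth muscle values depend on the scaling, since the hypoxic libraries had TMM factors near 0.5. With scaling by library size alone the differences there were 2.57 for P4ha1, 2.06 for P4ha2, -0.15 for Plod1 (adjusted p = 0.153), 0.40 for Plod2 and 0.83 for Plod3. For Lox, Loxl1, Loxl2, Loxl3 and Loxl4 they were -3.04, -3.51, -4.27, -1.96 and -1.76. All but Plod1 kept direction and call.

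**Figure D2:**
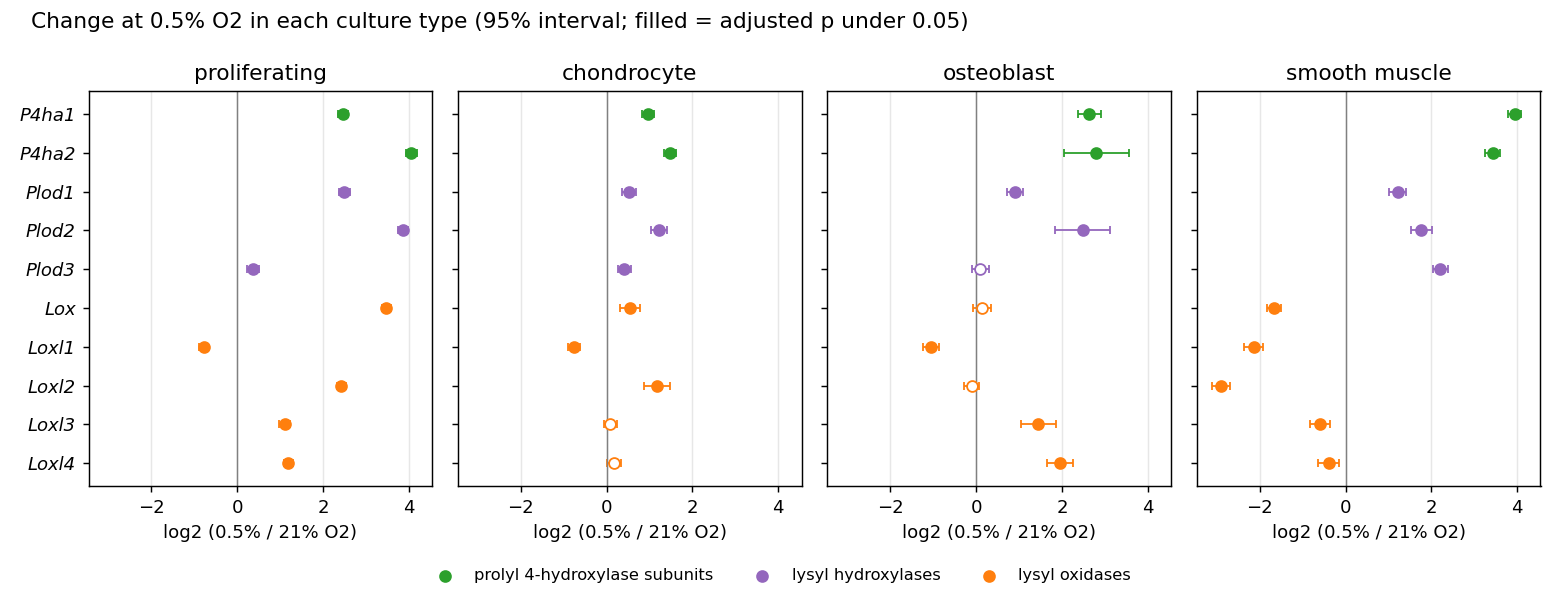
Log2 fold change at 0.5% against 21% O2 for each gene in the 4 culture types (3 against 4 libraries), with 95% intervals and filled points for an adjusted p under 0.05; colours mark the enzyme classes. In smooth muscle cultures the 5 hydroxylase genes lie between 1.22 and 3.94 and the 5 lysyl oxidase genes between -2.90 and -0.39, and with scaling by library size alone Plod1 there is at -0.15.

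P4ha1 and P4ha2 encode the catalytic alpha subunits of prolyl 4-hydroxylase. P4ha1 (ENSMUSG00000019916) lies on chromosome 10 at 59323296 to 59373304 on the plus strand, and P4ha2 (ENSMUSG00000018906) on chromosome 11 at 54100095 to 54131665 on the plus strand (GRCm38, GENCODE M21). P4ha1 measured 127, 137, 138 and 119 CPM in the normoxic proliferating libraries and 657, 671 and 741 CPM in the hypoxic ones. Every hypoxic library was above every normoxic one, a rise of 2.46 on the log2 scale (SE 0.0589, 5.51-fold, edgeR adjusted p = 6.58e-13). The gene rose by 0.97 in chondrocyte cultures (SE 0.0703), by 2.64 in osteoblast cultures (SE 0.135) and by 3.94 in smooth muscle cultures (SE 0.0769). In smooth muscle, P4ha1 went from 94.5 to 107 CPM in the normoxic libraries to 1431, 1496 and 1445 CPM, a 15.3-fold difference. Those levels overlapped the 1418 to 1463 CPM of hypoxic chondrocyte cultures with TMM scaling only. With library size alone the rise was 2.57 on the log2 scale, and the hypoxic smooth muscle mean of 754.4 CPM lay below the 1319 CPM of hypoxic chondrocyte and the 952.9 CPM of hypoxic osteoblast cultures.

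P4ha2 had the largest rise of the 10 genes in proliferating cells. Its normoxic libraries measured 23.0, 23.2, 21.8 and 25.7 CPM and its hypoxic libraries 365, 370 and 393 CPM, a 16.7-fold rise (4.06 on the log2 scale, SE 0.0628, edgeR adjusted p = 1.13e-14). It rose by 1.47 in chondrocyte cultures, from 459 to 515 CPM to 1282 to 1414 CPM, so that the starting level there was above the level that hypoxic proliferating cells reached. In osteoblast cultures P4ha2 rose by 2.80 (SE 0.389, edgeR adjusted p = 0.000688). Normoxic osteoblast replicate 4 measured 189 CPM against 67.7 to 74.6 CPM in the other 3 libraries, and without it the rise was 3.32. In smooth muscle it rose by 3.43, from 21.2 to 25.1 CPM to 223 to 253 CPM.

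The ratio of P4ha1 to P4ha2 counts was 5.59 ± 0.731 (SD, n = 4) in normoxic and 1.83 ± 0.0473 (SD, n = 3) in hypoxic proliferating cells, with no overlap between libraries (4.603 to 6.32 against 1.80 to 1.89). Chondrocyte cultures moved the same way, from 1.43 to 1.61 at 21% O2 to 1.00 to 1.13 at 0.5% O2. In smooth muscle the ratio went the other way, from 4.18 to 4.63 to 5.70 to 6.71. Osteoblast libraries overlapped, at 0.990 to 2.18 and 1.27 to 1.58, where the lowest normoxic value was replicate 4. The other 3 normoxic osteoblast libraries (1.88 to 2.18) lay above all 3 hypoxic ones, the same direction as in proliferating and chondrocyte cultures.

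The promoters of both genes were read to show the sequence beside these rises, together with that of Plod1. RefSeq promoter windows (300 bases, 250 before and 50 after the start, GRCm38.p6) were matched for 5 of the 10 genes: P4ha1, P4ha2, Plod1, Plod3 and Loxl4. Those of Plod2, Lox, Loxl1, Loxl2 and Loxl3 were not used here. Each window was searched on both strands for ACGTG and GCGTG, the letters at the core of the element that hypoxia-inducible factors bind, which read CACGT and CACGC on the other strand. Capitals mark the matches. The printed P4ha2 stretch lies within the GENCODE span of the gene, which starts at 54100095, so its RefSeq start is downstream of the GENCODE start. The 250 bases before the RefSeq start, which hold no annotated exon in these 3 genes, read 5′ to 3′ on the gene's strand, for P4ha1 at chr10:59323046-59323295 (plus strand), P4ha2 at chr11:54100674-54100923 (plus strand) and Plod1 at chr4:147936777-147937026 (minus strand):
P4ha1: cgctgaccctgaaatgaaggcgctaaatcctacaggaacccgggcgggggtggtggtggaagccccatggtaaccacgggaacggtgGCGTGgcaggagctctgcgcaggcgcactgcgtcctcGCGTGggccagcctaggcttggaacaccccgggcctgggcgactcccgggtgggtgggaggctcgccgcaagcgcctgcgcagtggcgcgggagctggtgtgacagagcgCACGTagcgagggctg
P4ha2: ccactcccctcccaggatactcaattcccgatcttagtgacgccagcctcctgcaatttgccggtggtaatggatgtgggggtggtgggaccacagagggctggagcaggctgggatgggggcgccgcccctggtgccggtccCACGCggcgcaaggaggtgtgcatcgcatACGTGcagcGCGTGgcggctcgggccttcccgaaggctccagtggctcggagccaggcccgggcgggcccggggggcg
Plod1: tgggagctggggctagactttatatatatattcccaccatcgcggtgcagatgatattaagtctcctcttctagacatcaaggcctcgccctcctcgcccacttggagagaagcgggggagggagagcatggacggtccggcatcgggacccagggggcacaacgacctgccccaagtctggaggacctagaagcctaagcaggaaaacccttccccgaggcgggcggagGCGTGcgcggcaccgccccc

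In the printed stretch P4ha1 held GCGTG starting 163 and 126 bases before the start and CACGT 16 bases before it. P4ha2 held CACGC starting 107 bases before the start, then ACGTG at 78 bases and GCGTG at 69 bases before it. Plod1 held GCGTG alone, 20 bases before the start. Over the full 300 bases there were 3 matches in P4ha1, 4 in P4ha2, 2 in Plod1, 4 in Plod3 and 1 in Loxl4. At least 1 match stood in 43.8% of all 32851 promoter windows of this length, and 3 or more in 8.93%. ACGTG on either strand was in 19.6% and GCGTG in 32.4% of the windows. Plod3, with as many matches as P4ha2, had the smallest rise among the 9 genes that rose in proliferating cells. A match is a description of the letters and no evidence of binding.

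The 3 lysyl hydroxylases differed in their response. Plod1 (ENSMUSG00000019055, chromosome 4, 147909753 to 147936767, minus strand) hydroxylates lysines of the collagen helix. Plod2 (ENSMUSG00000032374, chromosome 9, 92542223 to 92608428, plus strand) acts on the telopeptides, the ends where cross-links form. Plod3 (ENSMUSG00000004846, chromosome 5, 136987019 to 136996648, plus strand) also transfers sugars to hydroxylysine. In proliferating cells Plod2 went from 21.1, 21.0, 22.1 and 21.4 CPM to 290, 285 and 322 CPM, a 14.5-fold rise (3.86 on the log2 scale, SE 0.0572, edgeR adjusted p = 9.68e-15). Plod1 went from 24.7 to 29.7 CPM to 150 to 158 CPM (2.50, SE 0.0595). Plod3 went from 79.7 to 104 CPM to 114 to 119 CPM, a rise of 0.37 (SE 0.0681, edgeR adjusted p = 0.000292), far below the other 2.

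In chondrocyte cultures Plod2 rose by 1.22, from 497 to 622 CPM to 1236 to 1453 CPM, the highest levels of the gene in the series. Plod1 rose there by 0.53 and Plod3 by 0.41. In osteoblast cultures Plod2 rose by 2.49 (SE 0.324), again with normoxic replicate 4 apart at 65.3 CPM against 27.2 to 29.0 CPM, and by 2.90 without it. Plod1 rose by 0.90. Plod3 was at 122 to 150 CPM in normoxic and 133 to 146 CPM in hypoxic osteoblast libraries, which overlap, with a difference of 0.10 (SE 0.0961, edgeR adjusted p = 0.412). Without normoxic osteoblast replicate 4 the Plod3 difference was 0.17 with an adjusted p of 0.032.

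In smooth muscle cultures Plod3 had the largest rise of the 3 lysyl hydroxylases. It went from 77.7, 78.1, 76.9 and 95.1 CPM to 368, 368 and 349 CPM, a 4.61-fold rise (2.20, SE 0.0874, edgeR adjusted p = 6.95e-12). The Plod3 rise was 0.83 with scaling by library size alone, and its hypoxic smooth muscle mean was 187.3 CPM against 319.5 CPM in hypoxic chondrocyte cultures. Plod2 rose by 1.77, from 25.6 to 29.3 CPM to 69.6, 91.1 and 107 CPM, and stayed below every hypoxic library of the other culture types. Plod1 rose by 1.22, to 84.0 to 102 CPM, where scaling by library size alone gave -0.15. That scaling moved the median of all genes tested in this comparison to -1.49, and relative to that median Plod1 stood 1.34 higher. The high share of mitochondrial ribosomal RNA moved with every hypoxic smooth muscle value. With these RNAs left out of the fit the differences were 3.93 for P4ha1, 3.42 for P4ha2, 1.21 for Plod1, 1.77 for Plod2 and 2.20 for Plod3. For Lox, Loxl1, Loxl2, Loxl3 and Loxl4 they were -1.67, -2.15, -2.90, -0.59 and -0.39. TMM scaling already leaves out genes with extreme ratios, so this fit could change little, and the part of the RNA composition was not tested.

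Lox (ENSMUSG00000024529, chromosome 18, 52516067 to 52529867, minus strand), the founding lysyl oxidase, had the widest range of the 10 genes, 142-fold between the lowest and the highest group mean. Normoxic proliferating libraries measured 52.8, 54.5, 53.1 and 59.5 CPM and hypoxic ones 601, 585 and 587 CPM, an 11.2-fold rise (3.48, SE 0.0556, edgeR adjusted p = 1.38e-14). In normoxic chondrocyte cultures Lox was at 4481, 5046, 5614 and 6011 CPM and in hypoxic ones at 8965, 7157 and 7203 CPM, a rise of 0.55 (SE 0.115, edgeR adjusted p = 0.00541). In osteoblast cultures the difference was 0.13 (SE 0.105, 95% interval -0.07 to 0.34, edgeR adjusted p = 0.307). The hypoxic libraries (6245 to 6481 CPM) lay above the normoxic ones (4934 to 6123 CPM) with TMM scaling but overlapped them with library size alone (6169 to 6313 against 5550 to 6647 CPM). Without normoxic osteoblast replicate 4 the difference was 0.06 (adjusted p = 0.319). In smooth muscle Lox fell, from 513 to 589 CPM to 149, 164 and 175 CPM, by 1.67 on the log2 scale (SE 0.0854, edgeR adjusted p = 1.31e-10). The same oxygen step thus went with an 11.2-fold rise in one culture type and a 3.18-fold fall in another.

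Loxl1 (ENSMUSG00000032334, chromosome 9, 58287738 to 58313186, minus strand), which cross-links elastin and is held at elastic fibres by fibulin-5, was the only one of the 10 genes that fell at 0.5% O2 in all 4 culture types. It went from 176, 187, 175 and 176 CPM to 98.1, 108 and 93.8 CPM in proliferating cells, a fall of 0.78 on the log2 scale (SE 0.0553, edgeR adjusted p = 3.04e-08). In chondrocyte cultures it fell by 0.76, from 225 to 261 CPM to 144 to 153 CPM. The fall was 1.06 in osteoblast cultures, from 234 to 284 CPM to 121 to 136 CPM. In smooth muscle it fell by 2.14, from 301 to 371 CPM, the highest levels of the gene, to 57.7, 73.2 and 76.7 CPM, the lowest. All 4 hypoxic groups lay below all 4 normoxic groups, with 153 CPM the highest hypoxic and 175 CPM the lowest normoxic library. With scaling by library size alone Loxl1 was likewise called lower in all 4 comparisons.

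Loxl2, Loxl3 and Loxl4 encode the lysyl oxidases with scavenger receptor domains, of which Loxl2 is known to cross-link basement membrane collagen. Loxl2 (ENSMUSG00000034205, chromosome 14, 69609068 to 69695834, plus strand) rose in proliferating cells from 47.1, 45.3, 49.0 and 51.5 CPM to 249, 245 and 256 CPM (2.43, SE 0.0568, edgeR adjusted p = 5.26e-13). It rose by 1.18 in chondrocyte cultures, to 712 to 746 CPM, and differed by -0.10 in osteoblast cultures (SE 0.0908, 95% interval -0.28 to 0.08, edgeR adjusted p = 0.366), where the libraries overlapped. The osteoblast difference of Loxl2 was called lower with scaling by library size alone, at -0.26 (adjusted p = 0.0417). In smooth muscle it fell from 324, 316, 310 and 282 CPM to 39.0, 33.8 and 45.8 CPM, a 7.45-fold fall (2.90 on the log2 scale lower, SE 0.106, edgeR adjusted p = 2.72e-12). The highest of these 3 lay within the 45.3 to 51.5 CPM of normoxic proliferating cells and the other 2 below it with TMM scaling, while library size alone put all 3 (17.06 to 23.66 CPM) below those cells (51.77 to 61.54 CPM).

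Loxl3 (ENSMUSG00000000693, chromosome 6, 83034173 to 83052562, plus strand) and Loxl4 (ENSMUSG00000025185, chromosome 19, 42593982 to 42612813, minus strand) belong to the same subgroup. In proliferating cells Loxl3 rose by 1.11 and Loxl4 by 1.19. In chondrocyte cultures their differences were 0.09 (edgeR adjusted p = 0.44) and 0.17 (adjusted p = 0.176), with overlapping libraries. In osteoblast cultures Loxl3 rose by 1.45, from 152 to 161 CPM and 272 CPM in replicate 4 to 462, 509 and 549 CPM, and by 1.70 without that library. Loxl4 rose there by 1.95, from 39.1 to 60.6 CPM to 176, 186 and 168 CPM, its highest group mean in the series, and by 2.12 without replicate 4. In smooth muscle Loxl3 fell by 0.59, to 36.6 to 51.3 CPM, and Loxl4 fell by 0.39 (edgeR adjusted p = 0.0106, and 0.0582 with a replicate block), to 16.5 to 19.1 CPM, which are the lowest levels of both genes. Across the 28 libraries the log2 CPM of Loxl3 and Loxl4 had a Pearson r of 0.962, the highest among the 45 pairs of these genes, and P4ha1 and Loxl1 had the lowest at -0.702. The libraries share groups, so both values describe the series and carry no p.

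The second question is how the genes change when cells leave the proliferating state. At 21% O2 all 10 genes rose in chondrocyte cultures, where 37.7% of all genes tested were called higher and 37.2% lower. In the same comparison 14 of 19 genes known to respond to low oxygen were called higher and 1 lower, with a median of 1.91, and their part in the members' rises was not tested. That list had 8 higher and 8 lower of 19 in normoxic osteoblast and 5 higher and 11 lower of 18 in normoxic smooth muscle cultures. Lox rose by 6.66 (SE 0.115), a 101-fold change, Plod2 by 4.84 (28.7-fold) and P4ha2 by 4.44 (21.8-fold). Plod1 rose by 3.75, Loxl2 by 2.80, P4ha1 by 2.57 and Loxl3 by 2.31. Plod3 and Loxl4 both rose by 1.55, and Loxl1 by 0.56, the smallest of the 10.

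In normoxic osteoblast cultures 9 of the 10 genes rose, beside 40.9% of all genes called higher and 37.8% lower. The 7 summed osteoblast markers held 1986 to 2726 CPM in normoxic proliferating and 2750 to 4723 CPM in normoxic chondrocyte libraries. In normoxic osteoblast libraries these markers were lower, at 1041 to 1234 CPM, and their part was not tested. The 7 smooth muscle markers moved with this group: they summed to 3653 to 5179 CPM in its libraries, 3580 to 4044 CPM in normoxic smooth muscle, 2077 to 2535 CPM in normoxic chondrocyte cultures and 94.33 to 103 CPM in normoxic proliferating cells, with none at 0, and their part in the rises was not tested. Lox rose by 6.77 (109-fold), Loxl2 by 3.16, Plod1 by 2.42 and P4ha2 by 2.15. The P4ha2 rise was 1.60 without normoxic osteoblast replicate 4, and Plod2, which rose by 0.87 (SE 0.272), rose by 0.42 without that library and lost its call with no filter on low counts (0.85, adjusted p = 0.0558). Loxl3 rose by 0.89 with it and by 0.60 without it. Loxl4 did not pass (0.05, SE 0.135, edgeR adjusted p = 0.749), but without replicate 4 it was called lower, at -0.16 (adjusted p = 0.0156). Plod3, Loxl1 and P4ha1 rose by 0.54, 0.62 and 0.31. The P4ha1 rise was 0.17 without normoxic osteoblast replicate 4 (adjusted p = 0.00895), and also 0.17 with scaling by library size alone, where it lost its call (adjusted p = 0.163).

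In normoxic smooth muscle cultures 40.8% of all genes were called higher and 38.9% lower, and 5 of the 10 members rose while 3 fell, which is near the background for a list of this size. Lox rose by 3.35 (SE 0.068, 10.2-fold) and Loxl2 by 2.73 (6.62-fold), followed by Loxl1 at 0.89, Plod1 at 0.63 and Plod2 at 0.40. The Plod2 rise lost its call when all 28 libraries were fitted together (0.35, adjusted p = 0.109). P4ha1 fell by 0.34, Loxl3 fell by 0.50 and Loxl4 fell by 0.85. P4ha2 differed by 0.01 (95% interval -0.15 to 0.17, edgeR adjusted p = 0.899) and Plod3 by -0.15 (adjusted p = 0.113). Plod3 was called lower when normoxic proliferating replicate 4 (-0.23, adjusted p = 0.00577) or normoxic smooth muscle replicate 4 (-0.22, adjusted p = 0.00902) was left out.

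At 0.5% O2 all 10 genes rose from proliferating to chondrocyte cultures, where 34.9% of all genes were called higher and 34.6% lower. Of the 19 genes known to respond to low oxygen, 4 were called higher and 12 lower there, with a median of -0.64. That list had 9 higher and 7 lower in hypoxic osteoblast and 8 higher and 7 lower in hypoxic smooth muscle cultures. The smooth muscle markers moved here too, from 191.5 to 195.1 CPM in hypoxic proliferating cells to 1894 to 2275 CPM in hypoxic chondrocyte and 2215 to 2495 CPM in hypoxic osteoblast cultures, and their part was not tested. Lox led with 3.71 (SE 0.0906, 13.1-fold), then Plod2 with 2.18 and P4ha2 with 1.83. Plod1 rose by 1.76, Plod3 by 1.57, Loxl2 by 1.53, Loxl3 by 1.27, P4ha1 by 1.06 and Loxl1 by 0.56. The Loxl4 rise of 0.52 was 0.19 (adjusted p = 0.0544) with scaling by library size alone. In hypoxic osteoblast cultures (36.2% of all genes higher, 35.1% lower) 9 genes rose and Plod2 fell by 0.50, from 285 to 322 CPM to 196 to 232 CPM. Lox rose by 3.42 and Loxl3 by 1.23, followed by P4ha2 (0.90), Plod1 (0.82), Loxl4 (0.81), Loxl2 (0.63) and P4ha1 (0.49). The smallest rises there, Plod3 at 0.27 and Loxl1 at 0.34, lost their call with scaling by library size alone (0.04 and 0.11, adjusted p of 0.626 and 0.23). Hypoxic smooth muscle cultures (33.8% higher, 36.2% lower) had 2 genes that rose and 8 that fell. Plod3 rose by 1.75 and P4ha1 by 1.20. Loxl2 fell by 2.54, Loxl4 fell by 2.36, Loxl3 fell by 2.14, Lox fell by 1.74 and Plod2 fell by 1.62, with smaller falls of P4ha2 (-0.56), Plod1 (-0.59) and Loxl1 (-0.41). With library size alone the P4ha1 difference was -0.08 (adjusted p = 0.261) and that of Plod3 0.47, in a fit where the median of all genes was -1.35. The same scaling gave -1.84 for P4ha2, -1.87 for Plod1, -2.90 for Plod2, -3.02 for Lox, -1.69 for Loxl1, -3.81 for Loxl2, -3.42 for Loxl3 and -3.64 for Loxl4.

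**Figure D3:**
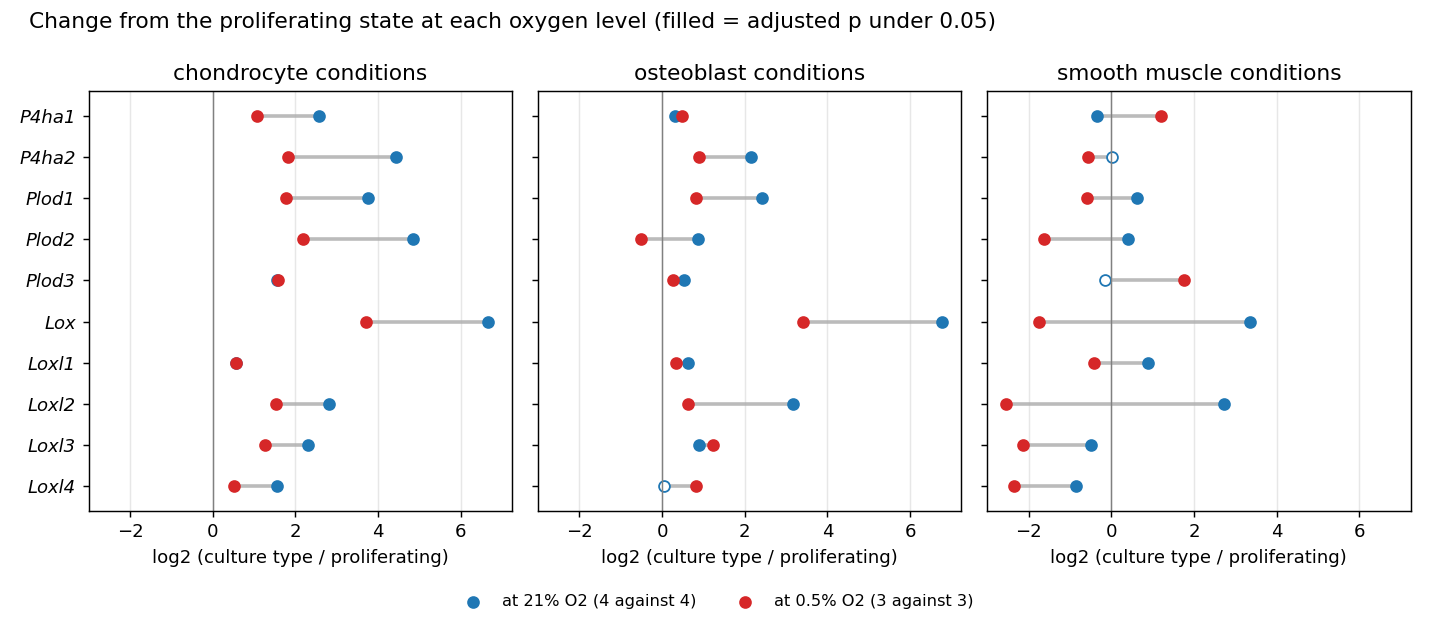
Log2 change of each gene from the proliferating state in chondrocyte, osteoblast and smooth muscle conditions, at 21% O2 (blue, 4 against 4 libraries) and 0.5% O2 (red, 3 against 3), with filled points for an adjusted p under 0.05. In smooth muscle conditions the Lox and Loxl2 points lie at 3.35 and 2.73 at 21% O2 and at -1.74 and -2.54 at 0.5% O2.

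Whether the oxygen response itself depends on the culture type was tested with an interaction term in edgeR, the hypoxic change in a differentiated culture minus that in proliferating cells. All 3 terms share the same proliferating libraries. In chondrocyte cultures 8 of the 10 responses were lower than in proliferating cells and none was higher, beside 21.9% and 21.6% of all genes tested. The differences were largest for Lox (-2.92, SE 0.137), Plod2 (-2.63), P4ha2 (-2.58) and Plod1 (-1.96). P4ha1 differed by -1.48, Loxl2 by -1.24, and Loxl3 and Loxl4 by -1 each. Plod3 (0.06, 95% interval -0.16 to 0.28) and Loxl1 (0.03, interval -0.15 to 0.21) did not pass, with adjusted p of 0.718 and 0.849. These were the 2 genes with the smallest oxygen response in proliferating cells.

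In osteoblast cultures 5 responses were lower and 1 was higher than in proliferating cells, beside 25.3% and 28.9% of all genes. Lox differed by -3.31 (SE 0.111), Loxl2 by -2.49, Plod1 by -1.56, Plod2 by -1.33 and P4ha2 by -1.22 (SE 0.433, edgeR adjusted p = 0.0316). The P4ha2 term lost its call in 9 of the 14 fits that left out 1 library (adjusted p up to 0.0601), and without normoxic osteoblast replicate 4 it was -0.69 with an adjusted p of 4.91e-07. The Plod2 term was -0.91 without that library. Loxl4 responded more in osteoblast cultures, by 0.81. Plod3 did not pass (-0.23, adjusted p = 0.148) but was called lower with scaling by library size alone (-0.35, adjusted p = 0.0278). Leaving out normoxic osteoblast replicate 4 brought the number of genes called from 6 to 9: P4ha1 (0.33), Loxl3 (0.64) and Loxl1 (-0.28) were then called as well. With all libraries the P4ha1 term was 0.22 (edgeR adjusted p = 0.24) and the Loxl3 term 0.38 (adjusted p = 0.209). Loxl1, at -0.24 with all libraries (adjusted p = 0.0672), was also called with DESeq2 (-0.25, adjusted p = 0.0386).

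In smooth muscle cultures all 10 responses differed, 8 lower and 2 higher, beside 35.5% and 34.9% of all genes. Loxl2 (-5.29, SE 0.12, edgeR adjusted p = 3.23e-19) and Lox (-5.11, SE 0.104, adjusted p = 5.77e-20) had the largest differences. Plod2 differed by -2.05, Loxl3 by -1.66, Loxl4 by -1.53, Loxl1 by -1.33, Plod1 by -1.24 and P4ha2 by -0.60, which lost its call when all 28 libraries were fitted together (-0.64, adjusted p = 0.0857). Plod3 and P4ha1 responded more in smooth muscle, by 1.88 and 1.52. With library size alone the P4ha1 term was 0.18 (adjusted p = 0.0714) and the Plod3 term 0.54 (adjusted p = 0.000243), where the median of all genes was -1.37. The lower terms were then -1.93 for P4ha2, -2.58 for Plod1, -3.38 for Plod2, -6.45 for Lox, -2.66 for Loxl1, -6.62 for Loxl2, -3 for Loxl3 and -2.87 for Loxl4.

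Per kilobase of annotated exon, which allows genes to be set beside each other, the leading member changed with the group. Normoxic proliferating cells had most Loxl1 (54.1 CPM per kb), then P4ha1 (31.6) and Loxl3 (22.5), with P4ha2 last at 3.76. In hypoxic proliferating cells P4ha1 led at 168 CPM per kb, followed by Lox at 124 and P4ha2 at 60.3. Lox led in all 4 chondrocyte and osteoblast groups, at 1107 and 1210 CPM per kb in the normoxic and 1627 and 1327 in the hypoxic ones, and in normoxic smooth muscle at 113. Hypoxic smooth muscle was led by P4ha1 at 354 CPM per kb, then Plod3 at 80.0, with Lox at 34.1.

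Within the summed lysyl oxidase level per kilobase, Loxl1 held 50.2% ± 0.505 (SD, n = 4) in normoxic proliferating cells and 11.2% ± 0.831 (SD, n = 3) in hypoxic ones, while Lox held 10.7% ± 0.735 and 45.7% ± 0.571. In chondrocyte and osteoblast cultures Lox held 78.8% to 86.4% of the level in every library at either oxygen level. Smooth muscle cultures kept a mixture, with Lox at 38.4% to 40.2% at 21% O2 and 43.5% to 45.1% at 0.5% O2. Among the lysyl hydroxylases, Plod3 held 71.8% ± 1.57 (SD, n = 4) of the level in normoxic proliferating cells, and Plod2 held 53.3% ± 1.70 (SD, n = 3) in hypoxic ones. Plod2 had the largest share in both chondrocyte groups, 49.2% and 62.0%. In hypoxic smooth muscle Plod3 held 72.5% ± 2.60 (SD, n = 3).

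**Figure D4:**
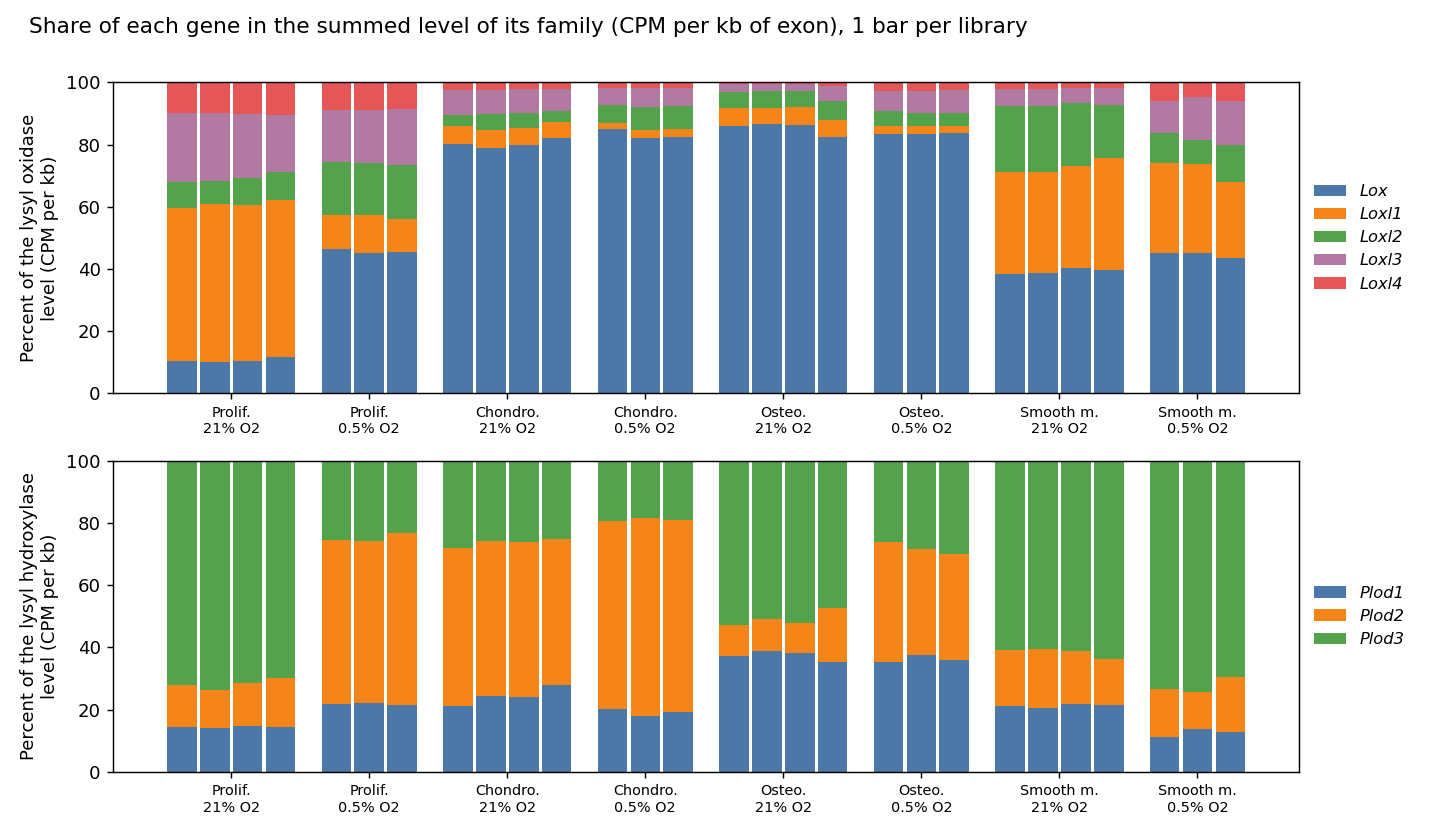
Share of each gene in the summed level of its family (CPM per kb of exon) in each of the 28 libraries, for the 5 lysyl oxidases (top) and the 3 lysyl hydroxylases (bottom). Lox holds 10.7% of the lysyl oxidase level in normoxic proliferating cells, 45.7% in hypoxic ones and 78.8% or more in every chondrocyte and osteoblast library, and Plod2 takes the place of Plod3 in hypoxic proliferating cells.

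The genes that work with these enzymes were counted against the same shares of all genes tested (higher and lower: 33.1% and 32.3% in proliferating, 10.4% and 11.8% in chondrocyte, 27% and 27.3% in osteoblast and 35.4% and 40.2% in smooth muscle cultures). Of 24 genes for other collagen-modifying enzymes and chaperones, 23 were in the table and 20 were tested in proliferating cells, and 8 rose and 4 fell at 0.5% O2. Creb3l1, a transcription factor for collagen secretion, rose by 2.04 and the chaperone Fkbp14 by 1.46, while P3h2, a prolyl 3-hydroxylase, fell by 2.13 and the procollagen proteinase Bmp1 fell by 0.35. In chondrocyte cultures 3 of 22 rose and 4 fell, and in osteoblast cultures 2 of 21 rose and 8 fell, led by Tmem38b (1.46) upward and Fkbp14 (-1.32) and P3h1 (-1.29) downward. In smooth muscle 3 of 21 rose and 12 fell, with Fkbp14 lower by 4.87 and Tll1 lower by 4.30, both on the log2 scale, and with scaling by library size alone 2 rose and 18 fell. P4hb, the beta subunit that joins P4ha1 and P4ha2 in the active enzyme and also serves as protein disulfide isomerase, rose by 1.42 in proliferating cells, by 0.55 in chondrocyte and by 2.64 in smooth muscle cultures. In osteoblast cultures it was at 933 to 1583 CPM and 1191 to 1228 CPM and did not pass (0.12, adjusted p = 0.613). P4hb was followed across the culture types after its values were seen.

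Of 16 substrates and partners of lysyl oxidases (15 in the table), 8 of 12 tested rose and 1 fell in proliferating cells, with fibronectin, Fn1, higher by 1.39 and periostin, Postn, lower by 0.34. In chondrocyte cultures 1 of 15 rose and 4 fell, in osteoblast cultures 4 rose and 6 fell, and in smooth muscle 1 rose and 12 fell. Elastin, Eln, the main substrate of Loxl1, was lower at 0.5% O2 in all 3 differentiated culture types, and the falls counted above include it. Eln passed the filter on low counts there only through the normoxic libraries, so its levels are given as a description. It went from 62.4 to 121 CPM to 0.158 to 0.580 CPM in chondrocyte cultures and from 48.9 to 84.3 CPM to 0.0352 to 0.658 CPM in osteoblast cultures. In smooth muscle it went from 2.97 to 9.22 CPM to 0 in all 3 libraries, at least 16.96-fold lower against a floor of 3 counts in a library. Proliferating cells had 0 counts of Eln at both oxygen levels. Fbln5, the fibulin that binds Loxl1, fell by 0.83 in chondrocyte, 2.36 in osteoblast and 2.66 in smooth muscle cultures but rose by 0.31 in proliferating cells. Fbln5 was followed across the culture types after its values were seen. The median log2 fold change of the substrate list in smooth muscle was -2.80, also with genes at 0 set to their bound, beside -0.12 over all genes. Eln and Fmod, at 0 in hypoxic smooth muscle, passed the filter on low counts there only through the normoxic libraries. Both belong to the genes tested for this list, and values without them are not given. Fn1, the 1 gene that rose there (0.27), was at -1.09 with scaling by library size alone.

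Of 14 genes that handle iron, copper, ascorbate or 2-oxoglutarate, 13 were tested at each oxygen comparison. In proliferating cells 7 rose and 3 fell, in chondrocyte cultures 3 and 1, in osteoblast cultures 5 and 5, counts near the shares of all genes there, and in smooth muscle 6 and 6, also near them (2 and 9 with scaling by library size alone). The copper transporter Atp7b lay at 0 to 0.161 CPM in normoxic and 7.25 to 8.80 CPM in hypoxic proliferating libraries. Since it passed the filter on low counts only where hypoxic libraries entered the fit, these levels are given as a description. With TMM scaling the rises counted above include Atp7b in all 4 culture types, and counts without it are not given. The iron importer Slc11a2 was called lower in all 4, by 1.56 on the log2 scale in proliferating cells and by 0.41 in chondrocyte cultures, and its smooth muscle value was looked up after its others were seen. Slc40a1, the iron exporter, rose by 2.83 in proliferating cells (SE 0.56) and was lower by 2.89 in osteoblast (SE 0.293) and 4.77 in smooth muscle cultures (SE 0.532). Tfrc, the transferrin receptor, moved the opposite way, lower by 1.08 in proliferating cells and higher by 2.54 in smooth muscle.

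As a check of the oxygen step, 19 genes known to respond to low oxygen (none of the 10 among them) rose in 19, 16, 19 and 19 cases in proliferating, chondrocyte, osteoblast and smooth muscle cultures, and none fell. Their median log2 fold changes were 3.17, 1.41, 3.20 and 3.95. Vegfa rose by 2.26, 1.11, 2.88 and 3.17 in the same order. In chondrocyte cultures the interaction term of 16 of these 19 genes was lower and that of none higher, beside the 8 lower terms among the 10 members. In the osteoblast interaction 6 of the 19 were higher and 4 lower (median 0), and in that of smooth muscle 9 were higher and 7 lower (median 0.69), or 4 and 11 with library size alone. With scaling by library size alone 17 of the 19 were called higher in smooth muscle and none lower.

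Over all 28 libraries, the genes whose log2 CPM followed P4ha1 most closely were Adm2 (Pearson r 0.976), Higd1a (0.970) and Vegfa (0.967). For P4ha2 they were Fstl3 (0.966), Pgf (0.964) and Rassf5 (0.963). Plod1 was closest to Ncam1 (0.941), Ostf1 (0.939) and Fam214b (0.938), and Plod2 to C9orf72 (0.955), Ostf1 (0.951) and 2510039O18Rik (0.940). Plod3 was closest to Tex261 (0.949), Junb (0.946) and Copb1 (0.937). Lox was closest to Atp2b4 (0.987), Prune2 (0.974) and Tsc22d4 (0.963), and Loxl1 to Adgrl1 (0.947), Pip5k1c (0.942) and Tesk1 (0.935). Loxl2 was closest to Tbc1d9b (0.963), Ikbip (0.961) and Ctnnd1 (0.961), Loxl3 to Unc5b (0.965), Ptprf (0.964) and Itga5 (0.963), and Loxl4 to Asap2 (0.977), Adam9 (0.977) and Loxl3 (0.962). These are descriptions over libraries that share groups and carry no p.

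In the authors' deposited tables, the log2 fold change had the same sign as here in 100 of 100 pairs of gene and comparison, with a median absolute difference of 0.01. The largest difference, 0.10, was for P4ha2 in osteoblast cultures, given as 2.70 in the authors' deposited table.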

How the data were processed

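RNA was sequenced from 28 polyA libraries made with a stranded kit, per the labels' protocols. Per the submitters' processing notes, HISAT2 2.0.5, StringTie 1.3.3b, featureCounts 1.5.0-p3 and mm10 were used, with no role or order given. The use of strand in counting is not given in the sources used here. The deposited table holds a read count per gene and library, unnormalised. The deposited comparison tables hold log2 fold changes and p-values, per the file headers, which do not say whether the p-values are adjusted, and 70 columns of per-library values that were not used here.

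Counts were tested in R 4.3.3 with edgeR 4.0.16 (robust quasi-likelihood, two-sided), on the groups of each comparison alone, after filterByExpr (10 counts, total 15) and TMM scaling. There were 10 pairwise and 3 interaction comparisons. The standard error is the absolute log2 fold change over the square root of F, and intervals are 95% from that error. Levels are CPM with TMM factors from all 28 libraries over 16540 genes. Exon lengths and gene positions come from GENCODE M21 (GRCm38), which may not be the authors' annotation, and promoters from RefSeq. Alternatives were DESeq2 1.42.0, limma-voom (limma 3.58.1), 2 other scalings (library size alone and RLE), 2 other filters, a fit without mt-Rnr1 and mt-Rnr2, a replicate block, a fit of all 28 libraries and each library left out. Leaving out replicate 4 of every normoxic group was added after the data were seen. The fitting functions were tested on simulated data.

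All 10 members are named in every comparison. Of each other list, at most the 2 largest called rises and 2 largest called falls per comparison were named, with check genes of the oxygen response and the culture types. For each member, the 3 genes with the highest Pearson r were named. The members, lists and tests were chosen with earlier results of these data known. No pair of libraries of a group was close enough to be 1 library counted again: the lowest chi-square per gene was 2.89.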

Additional observations from a re-analysis of the deposited data

Results flagged for a closer look

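In 15 of 40 sets of 4 normoxic libraries, 1 library lay far from the other 3; chance alone gives about 1 in 20. Normoxic osteoblast replicate 4 was that library 6 times. It measured 187.5 CPM of P4ha1 (others 140 to 147.5), 189.4 CPM of P4ha2 (67.71 to 74.56), 167.5 CPM of Plod1 (133.7 to 139.3), 65.26 CPM of Plod2 (27.23 to 29), 272.2 CPM of Loxl3 (152.4 to 161.1) and 4934 CPM of Lox (5981 to 6123). The same library held more Col2a1 (775.6 CPM against 35.6 to 43.64), and the part of this difference in the values was not tested. Normoxic smooth muscle replicate 4 was highest for Plod1 (48.01 CPM), Plod3 (95.08 CPM) and Loxl1 (371.3 CPM), and replicate 3 of that group was lowest for Loxl4 (21.15 CPM). Normoxic chondrocyte replicate 1 was lowest for Plod1 (308.7 CPM) and Loxl1 (225.2 CPM), and replicate 4 was lowest for Plod3 (225.6 CPM). In normoxic proliferating cells, replicate 4 was lowest for Plod1 (24.72 CPM) and replicate 2 highest for Loxl1 (186.9 CPM). Replicate 4 was thus flagged in all 4 normoxic groups, and no hypoxic group has a replicate 4. In normoxic osteoblast libraries, pairs with replicate 4 had a chi-square per gene of 91.1 to 97.04, other pairs 2.891 to 3.877. These were 18.3 to 22.29 and 5.177 to 5.826 in proliferating, 14 to 20.2 and 6.096 to 7.935 in smooth muscle libraries. In chondrocyte libraries replicate 1 stood about as far apart as replicate 4. A batch was not tested.

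In 24 of 30 tests of an interaction in edgeR, the oxygen response of a differentiated culture differed from that of proliferating cells on the log2 scale. In chondrocyte cultures these were P4ha1 (-1.48), P4ha2 (-2.58), Plod1 (-1.96), Plod2 (-2.63), Lox (-2.92), Loxl2 (-1.24), Loxl3 (-1) and Loxl4 (-1). In osteoblast cultures they were P4ha2 (-1.22), Plod1 (-1.56), Plod2 (-1.33), Lox (-3.31), Loxl2 (-2.49) and Loxl4 (0.81). In smooth muscle cultures they were P4ha1 (1.52), P4ha2 (-0.6), Plod1 (-1.24), Plod2 (-2.05), Plod3 (1.88), Lox (-5.11), Loxl1 (-1.33), Loxl2 (-5.29), Loxl3 (-1.66) and Loxl4 (-1.53). The tests share the proliferating libraries. Over all genes tested, 21.6% were called higher and 21.9% lower in the chondrocyte interaction. The shares were 28.9% and 25.3% in that of osteoblast and 34.9% and 35.5% in that of smooth muscle cultures.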

How the results depend on the processing

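The number of members called in each comparison stayed within 1.5 times its value under every alternative run, and over single members 2330 values kept direction and call, 21 gained a call, 19 lost one and 20 changed sign; except where stated, the cause was not tested. With library size alone the sign changed for Plod3 (-0.06) and Lox (-0.02) in the osteoblast oxygen comparison, Plod1 in that of smooth muscle (-0.15), Loxl4 in normoxic osteoblast against proliferating (-0.10) and P4ha1 in hypoxic smooth muscle against proliferating (-0.08). That scaling moved the share of calls that were higher from 46.9% to 31.8%, 49.6% to 36.9% and 46.8% to 15.6% for oxygen in chondrocyte, osteoblast and smooth muscle cultures, from 50.3% to 34.7% in normoxic chondrocyte, from 50.2% to 31.8%, 50.8% to 38.2% and 48.3% to 15% in hypoxic chondrocyte, osteoblast and smooth muscle against proliferating, and from 49.6% to 16.6% in the smooth muscle interaction. Small values also crossed 0: Loxl4 in normoxic osteoblast (-0.01 in 1 fit of all libraries, and -0.15 without replicate 4 of every normoxic group, an alternative chosen after seeing the data), P4ha2 in normoxic smooth muscle (-0.04 in that fit, 0 with no filter) and Loxl1 in the chondrocyte interaction (-0.02 with DESeq2 and with RLE, -0.01 with the stricter filter). With each library left out, these ranged from -0.16 to 0.10 (Loxl4), -0.04 to 0.05 (P4ha2) and -0.02 to 0.09 (Loxl1), and Plod3 in the chondrocyte interaction from -0.01 to 0.13. Members called in the osteoblast interaction ranged from 5 to 9. Correlations between the deviations of same-numbered libraries were -0.0651 to 0.0814, with all pairs over 0.1 in 0 of 10 comparisons. They come from few libraries per group, so they cannot decide whether libraries with the same number share a batch, which was not tested. With the replicate block 8 members were called for oxygen in osteoblast cultures (Plod3 gained, 0.17, edgeR adjusted p = 0.0499) and 9 in smooth muscle (Loxl4 lost, -0.36, adjusted p = 0.0582).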
